A study of Bos taurus with 10 samples.

Results

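The transforming growth factor beta (TGF-beta) and bone morphogenetic protein (BMP) signalling genes are 43 genes picked by name from the 26804 genes of the expression table: ligands, the proteins that process and store them, receptors, SMAD transducers, inhibitors, antagonists and target genes. They were followed in bovine oviductal organoids, hollow epithelial bodies grown from the oviducts of cows in diestrus. Each replicate letter (A to E) stood for a pool of oviducts from 2 animals, and organoids of each pool were cultured at 37 °C throughout (5 libraries, 37C A to 37C E) or moved to 42 °C for the final day (5 libraries, 42C A to 42C E). All cultures at both temperatures were given the same organoid medium, which contained Noggin (a protein that captures BMPs), A83-01 (an inhibitor of the type I receptors of TGF-beta and activin, TGFBR1 and ACVR1B among them) and an inhibitor of p38 kinase, as well as EGF and FGF-10. The members' RNA levels were therefore measured in cells kept under blockers of both branches at either temperature.

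Ligands of this family are secreted as pairs of subunits, and TGF-beta is stored in the matrix in a latent form. An active ligand joins type II and type I receptor kinases, which phosphorylate SMAD2 and SMAD3 in the TGF-beta and activin branch or SMAD1 and SMAD5 in the BMP branch, and these enter the nucleus with the shared partner SMAD4. The pathway is known for limiting the growth of epithelia, for shaping the matrix and for switching on its own inhibitors.

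RNA level was measured as TPM (transcripts per 1000000), a value corrected for gene length with the same total in each library. It gives the share of a library's RNA and holds no read depth, so no interval from counting could be given. In bulk RNA, fewer cells of a type and less RNA per cell cannot be told apart. All 8 epithelial marker genes examined were at 1 TPM or more in all 10 libraries, with a summed level of 13190 to 16042 TPM at 37 °C and 8311 to 12350 TPM in 42C A, C, D and E. Most of that sum was keratin RNA (KRT19 had means of 5248 and 1904 TPM), and the list was split, with 4 markers lower and 4 higher at adjusted p below 0.05, EPCAM (657 and 1033 TPM) and CDH1 (201 and 396 TPM) among the latter. The oviductal glycoprotein gene OVGP1 and the ciliary dynein genes DNAH5 and DNAH9 were below 1 TPM in all libraries, and 3 of the 4 ciliated cell markers tested fell with no overlap (CCDC78, 10.7 and 2.52 TPM; TEKT1, 3.46 and 0.456 TPM; TEKT2, 2.28 and 0.238 TPM). Their part in the members' values was not tested. Of the 10 fibroblast markers, 7 were below 1 TPM in all libraries (COL1A1, COL1A2, COL3A1, DCN, LUM, PDGFRB and POSTN). Library 42C B stood apart: 44.9% of the 12149 genes tested were lower and 7.99% were higher in it than in all 9 others. The study set 1 heat-stressed replicate aside, and 42C B was left out of the fit here, with its values given beside. Library 42C A lay between the groups for several members, and the 13 mitochondrially encoded protein genes took 6.04% of its TPM, against 6.02 to 7.02% at 37 °C and 2.82 to 2.88% in 42C C, D and E.

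All 43 members passed the filter on low values (at least 1 TPM in no fewer than 4 of the 9 libraries), and 42 of them, all but BMP3, reached 1 TPM in all 10 libraries. Members' mean levels at 37 °C ran from 0.915 TPM (BMP3) to 212 TPM (LTBP3), with a median of 17.3 TPM. After the storage protein LTBP3 came the protease BMP1 (79.4 TPM), the transducer SMAD3 (75.7 TPM) and the corepressor TGIF1 (65.3 TPM), while the inhibitory SMAD7 (2.02 TPM) stood next to last. The spread between libraries of a group was wider for the members than for genes at large, with a median coefficient of variation of 25.2% at 37 °C against 14.6% over all tested genes, and of 23.1% against 20.1% at 42 °C.

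At 42 °C the RNAs of the TGF-beta receptors TGFBR1 and TGFBR2, the activin receptor ACVR1B, the ligand BMP2, the inhibitors SMURF2, SKI, SKIL and BAMBI and the target gene ID2 rose, and that of the activin-binding antagonist FST fell. A gene was called when limma's moderated test on log2(TPM + 1) gave a Benjamini-Hochberg adjusted p below 0.05 and the difference was at least 1 on the log2 scale. By this rule 10 of 43 members were called (23.3%), against 22.9% of the 12149 tested genes, so the share of members called was close to that of genes at large. Of the members, 9 rose (20.9%) against 15.8% of all tested genes, and 1 fell (2.33%) against 7.14%. At adjusted p below 0.05 without regard to fold, 25 members were higher (58.1%, against 45.1% of all tested genes) and 2 were lower (4.65%, against 18.1%). Every library of 42C A, C, D and E was above every 37 °C library for 17 members (39.5%, against 36.6%) and below for 0 members (against 12.3%). The median difference, 42 °C minus 37 °C, was 0.57 on the log2 scale over the members and 0.30 over all tested genes. That general shift depended on scaling: when libraries were scaled by median ratios the median of all genes moved by -0.31 to -0.01, and that of the members was 0.23. The calls were then 5 higher and 2 lower among the members (4 and 2 after quantile normalization). Of all 12149 tested genes, 922 (7.59%) were called higher and 1435 lower. After quantile normalization 981 (8.07%) were called higher and 1253 lower. Of all calls, 39.1% were higher (43.9% after quantile normalization) in place of 68.8%. At adjusted p below 0.05 without regard to fold, median-ratio scaling left 13 members higher and 8 lower, beside 28.8% and 29.8% of all tested genes. Quantile normalization left 16 and 7, beside 31.3% and 25.8% of all tested genes. The replicate block, which compares libraries of the same oviducts, left 22 higher and 1 lower, beside 42.1% and 16.9% of all tested genes.

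**Figure D1:**
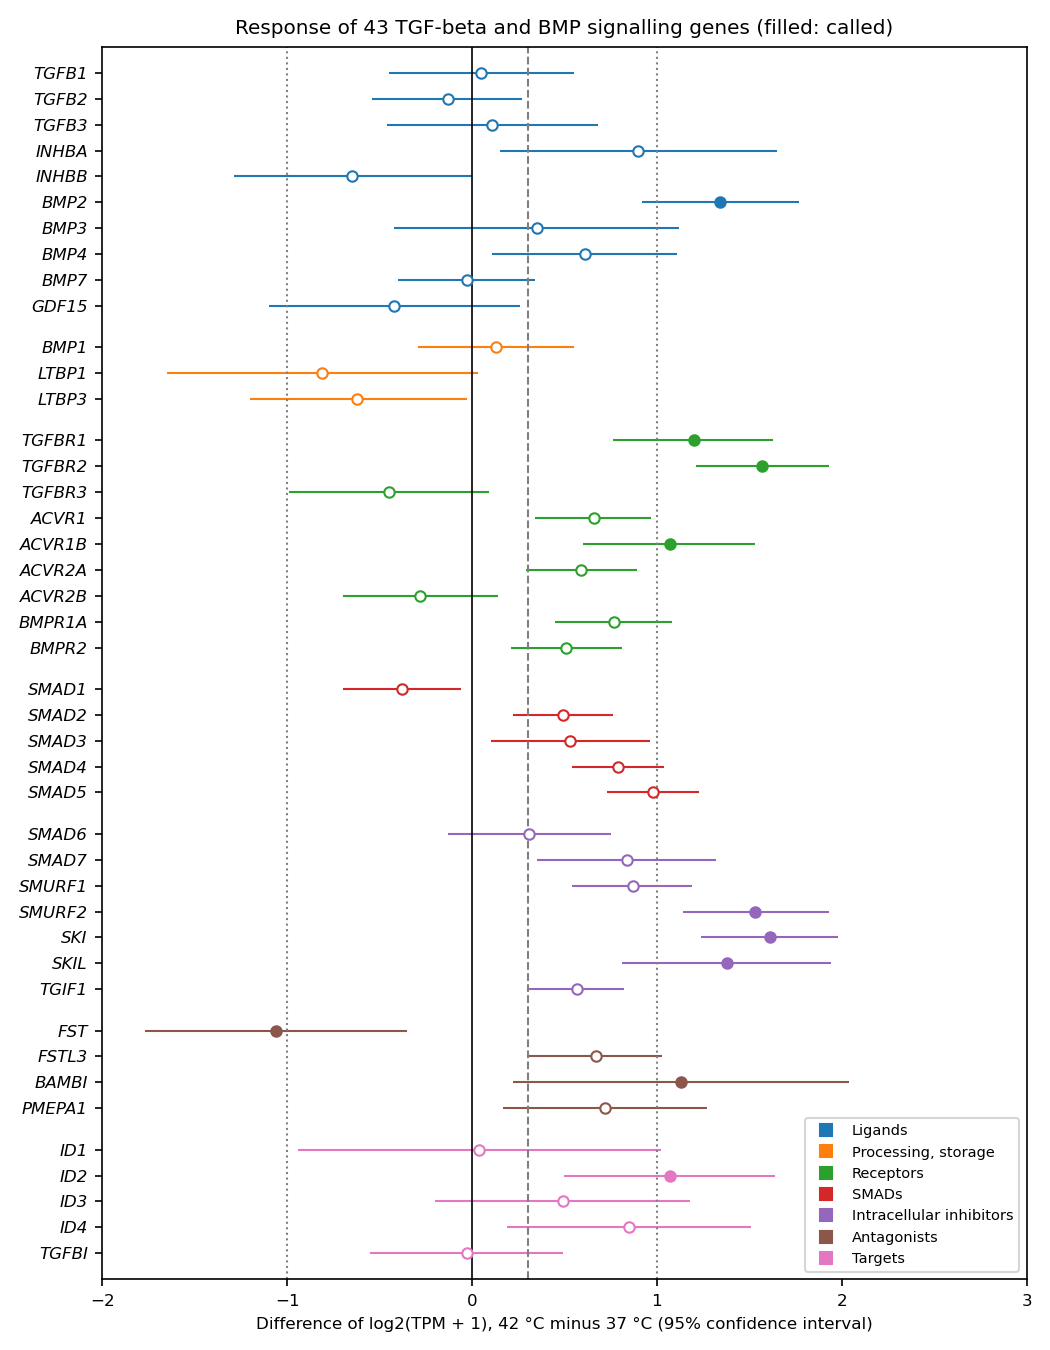
Difference of log2(TPM + 1) between 42 °C and 37 °C for the 43 members, arranged by role, with 95% confidence intervals from limma (5 libraries at 37 °C, 4 at 42 °C). Filled points are the 10 called members, the dashed line is the median of all tested genes (0.30) and the dotted lines mark the fold threshold of 1 in either direction. Most receptors and all 7 intracellular inhibitors lie right of 0 (SMAD6 at -0.02 under median-ratio scaling and -0.06 after quantile normalization), and FST, LTBP1, INHBB and LTBP3 lie farthest to the left.

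Among the ligands, 1 of 10 rose (10%, against 15.8% of all tested genes). BMP2, which signals through BMPR1A and BMPR2, had 4.81, 4.12, 6.94, 9.11 and 7.01 TPM in 37C A to E and 16.9, 17.3, 16.9 and 17.8 TPM in 42C A, C, D and E, with 8.47 TPM in 42C B. The groups did not overlap, and the 4 libraries at 42 °C lay within 1 TPM of each other. The difference was 1.34 ± 0.19 (SE) on the log2 scale (adjusted p = 0.000153), and BMP2 was higher in 4 of 4 pools.

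The activin subunit gene INHBA was higher at 42 °C under the fold threshold, with means of 2.95 ± 1.91 TPM (SD, n = 5) and 6.4 ± 3.7 TPM (SD, n = 4), a log2 difference of 0.90 and an adjusted p of 0.0381 (0.0821 with the replicate block). It reached 11.8 TPM in 42C A, and 37C D (6.32 TPM) was above 3 of the 4 libraries at 42 °C. Without 37C D its difference was 1.15 (adjusted p = 0.00633), and it was 1.04 without 42C D (adjusted p = 0.0369) or 42C E (0.0342). INHBA did not pass the test without 37C A (adjusted p = 0.0693), 37C B (0.075), 37C C (0.0864) or 37C E (0.0677). Nor did it pass without 42C A (adjusted p = 0.104) or 42C C (0.0664) or under median-ratio scaling (0.134) or quantile normalization (0.135). BMP4, another ligand of the BMP receptors, had means of 2.51 and 4.34 TPM (log2 difference 0.61, adjusted p = 0.0359) and was higher in 4 of 4 pools. BMP4 did not pass the test under median-ratio scaling (adjusted p = 0.214) or quantile normalization (0.233), or with all 10 libraries (0.108). Nor did BMP4 pass without 37C B (adjusted p = 0.085), 37C C (0.0712) or 37C E (0.0685). The same held without 42C A (adjusted p = 0.0862), 42C C (0.0505) or 42C D (0.0936). It passed without 37C A (adjusted p = 0.0327), 37C D (0.022) or 42C E (0.0195), and with the replicate block (0.0423).

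The other 7 ligands did not pass the test. TGFB1, the main TGF-beta isoform, averaged 33.4 ± 5.15 TPM (SD) in the 37 °C libraries and 36.5 ± 14.4 TPM in the 42 °C libraries (adjusted p = 0.861). Its libraries at 42 °C fell on both sides of the 37 °C range of 29.3 to 41.7 TPM: 52.6 TPM in 42C A and 44.6 TPM in 42C E, against 25.6 TPM in 42C C and 23.1 TPM in 42C D. TGFB1 made up 55.9 to 74.1% of the summed TPM of TGFB1, TGFB2 and TGFB3 at 37 °C and 60.5 to 76.1% at 42 °C, so the order of the isoforms (TGFB1, TGFB2, TGFB3) was the same in all of these libraries. INHBB, the other activin subunit gene, had means of 34.1 and 23.4 TPM (log2 difference -0.65, adjusted p = 0.0749), with 42.9 TPM in 42C A, above the 37 °C range, and values of 12.5 to 22.2 TPM below it in the other 3. Without 42C A its difference was -0.98 (adjusted p = 0.00157). GDF15, a distant member of the family that rises in stressed cells, showed the same split, with 26.6 TPM in 42C A and 7.5 to 10.5 TPM in the other 3, against 12 to 22.9 TPM at 37 °C. Its difference was -0.42 (adjusted p = 0.255) with 42C A and -0.79 (adjusted p = 0.00401) without it. TGFB2 (14.5 and 12.8 TPM), TGFB3 (2.83 and 2.91 TPM), BMP3 (0.915 and 1.28 TPM) and BMP7 (29.6 and 28.5 TPM) overlapped between the temperatures.

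**Figure D2:**
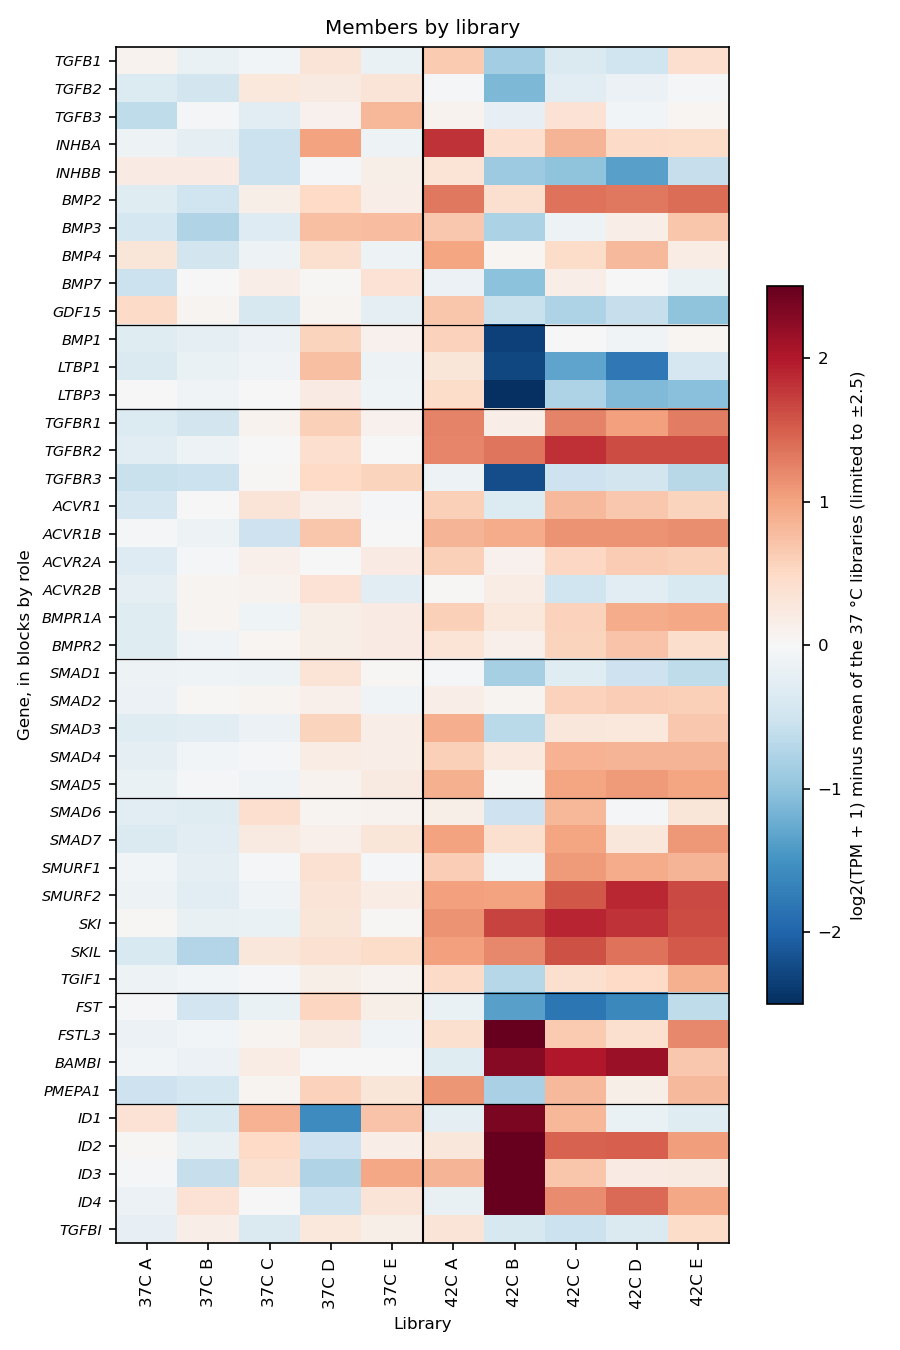
Each cell is the log2(TPM + 1) of a member in a library minus that member's mean over the 5 libraries at 37 °C. Rows are the 43 members in blocks by role, and columns are the 10 libraries. The 42C A column is pale or of the other colour for INHBB, GDF15, LTBP1, LTBP3, FST, BAMBI and ID4, and 42C B has the deepest colours for BMP1, LTBP3, FSTL3 and the ID genes.

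Of the 3 genes of processing and storage, 0 passed limma's test after adjustment (63.2% of all tested genes did) and 1 (LTBP3) had an unadjusted p below 0.05. LTBP3 and LTBP1 encode latent TGF-beta binding proteins, which anchor the stored ligand in the matrix, and BMP1 encodes a metalloprotease that trims procollagens and releases stored ligands. LTBP3 had 196 to 243 TPM at 37 °C, 289.7 TPM in 42C A and from 98.4 to 123 TPM in the other 3 libraries of the fit (log2 difference -0.62, adjusted p = 0.061). LTBP1 had 7.25 to 16.8 TPM at 37 °C, 12.1 TPM in 42C A and from 2.07 to 6.88 TPM in the other 3 (log2 difference -0.81, adjusted p = 0.0857). In both genes 42C C, D and E lay below the whole 37 °C range and 42C A lay in or above it. Without 42C A, LTBP1 passed the rule with a difference of -1.18 (adjusted p = 0.0068), and LTBP3 had -0.97 (adjusted p = 1.53e-05), under the fold threshold. LTBP1 was also called lower under median-ratio scaling (-1.10), quantile normalization (-1.12) and array weights over all 10 libraries (-1.12). In 42C B, LTBP3 was at 13.1 TPM, LTBP1 at 1.19 TPM and BMP1 at 14.5 TPM, where BMP1 was at 62.8 to 116 TPM in the other 9 libraries. Summed RNA of the fibroblast and of the mesothelial markers lay below the 37 °C range in every heat-stressed library of the fit. This held in 42C A too, where LTBP1 and LTBP3 did not lie below their 37 °C ranges. The 10 fibroblast markers, nearly all VIM and THY1, summed to 274 to 569.5 TPM at 37 °C and 182 TPM in 42C A. They reached 31.3 to 62.9 TPM in the other 3 libraries of the fit. For the 3 mesothelial markers the sums were 411 to 483 TPM, 305 TPM and 96.7 to 112 TPM. In 42C B the fibroblast sum was 109 TPM and the mesothelial sum 60.5 TPM. The part of these markers in the values of LTBP1 and LTBP3 was not tested.

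Of the 9 receptors, 3 rose (33.3%, against 15.8% of all tested genes). A further 4 were higher at adjusted p below 0.05 under the fold threshold, which made 7 (77.8%, against 45.1%). These 7 receptors were also the ones whose groups did not overlap, as was so in this direction for 36.6% of all tested genes. TGFBR2, the type II receptor that binds TGF-beta, had 11.2, 12.7, 13.8, 18.8 and 13.8 TPM in 37C A to E and 33.6, 51.8, 44.8 and 44.8 TPM in 42C A, C, D and E, with 36.7 TPM in 42C B. Every heat-stressed library, 42C B included, was above the whole 37 °C range, and the difference was 1.57 ± 0.16 (adjusted p = 3.48e-05).

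TGFBR1, the type I kinase that TGFBR2 activates, had 9.17, 8.38, 12.7, 18.6 and 12.9 TPM in 37C A to E and 29.4, 29.6, 25.2 and 30.3 TPM in 42C A, C, D and E. The difference was 1.2 ± 0.20 (adjusted p = 0.000362), and the groups did not overlap, but 42C B with 13.4 TPM lay inside the 37 °C range. ACVR1B, the type I receptor of activin, had 6.77, 6.34, 4.56, 11.9 and 7.03 TPM in 37C A to E and 13.4, 16.4, 16.5 and 17 TPM in 42C A, C, D and E, with 14.3 TPM in 42C B. Its difference was 1.07 ± 0.21 (adjusted p = 0.00113). All heat-stressed libraries were above 37C D, the highest at 37 °C. Without 37C C, the lowest library, ACVR1B had a difference of 0.93 and missed the fold threshold. Under median-ratio scaling TGFBR2 was still called, whereas TGFBR1 (0.87) and ACVR1B (0.75) fell short of the fold threshold.

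The 4 receptors under the fold threshold had smaller differences. BMPR1A, a type I receptor for BMP2 and BMP4, had means of 17.2 and 30 TPM (0.77, adjusted p = 0.000802). ACVR1, a type I receptor of the BMP branch, had 32.1 and 50.6 TPM (0.66, adjusted p = 0.00209). The type II receptors ACVR2A (8.63 and 13.4 TPM, 0.59, adjusted p = 0.00292) and BMPR2 (18.1 and 26.1 TPM, 0.51, adjusted p = 0.0065) complete the set. Under median-ratio scaling BMPR1A alone of these 4 kept an adjusted p below 0.05, while ACVR1 had a difference of 0.32 (adjusted p = 0.0604), ACVR2A 0.28 (adjusted p = 0.0794) and BMPR2 0.18 (adjusted p = 0.217).

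TGFBR3, the coreceptor betaglycan, and the type II receptor ACVR2B did not pass the test, with log2 differences of -0.45 (24.1 and 16.6 TPM, adjusted p = 0.132) and -0.28 (2.38 and 1.78 TPM, adjusted p = 0.223). Under median-ratio scaling both were lower at adjusted p below 0.05 (-0.77 and -0.50). At 37 °C the TPM of TGFBR2 was 0.406 to 0.821 times that of TGFBR3, and at 42 °C it was 1.62 to 3.3 times (8.96 times in 42C B), so the order of these receptors was turned in all libraries. As a description, the 9 receptors together held 102 to 167 TPM at 37 °C, 210.4 to 237 TPM in 42C A, C, D and E and 146 TPM in 42C B.

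**Figure D3:**
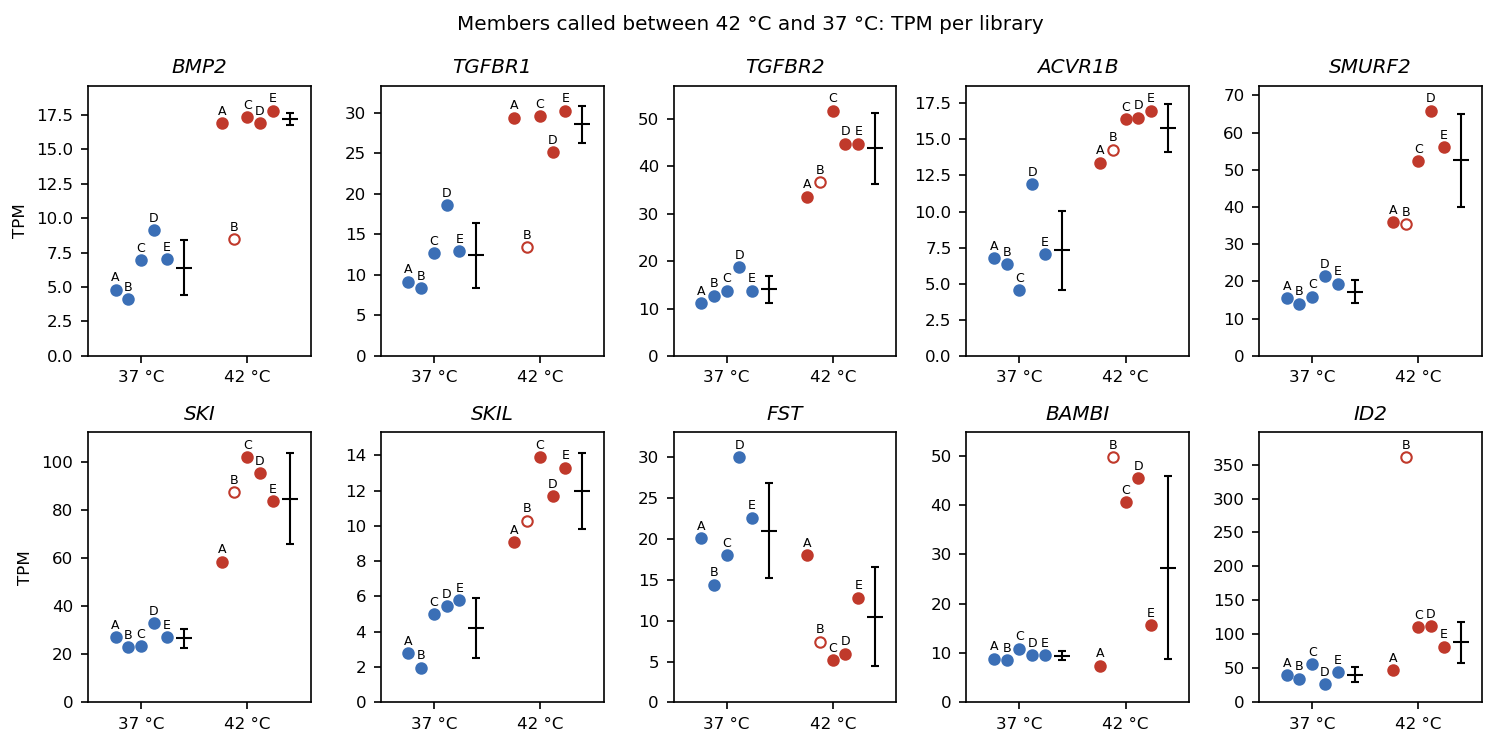
TPM of the 10 called members in each library, with the replicate letter above each point. Blue points are the 37 °C libraries, filled red points are 42C A, C, D and E, the open red point is 42C B (left out of the fit), and bars give the mean ± SD of the libraries in the fit. The groups are apart for 7 of the 10 and overlap for FST, BAMBI and ID2, where 42C A lies within the 37 °C range (FST, ID2) or below it (BAMBI).

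All 5 signal-carrying SMAD genes differed at adjusted p below 0.05, as did 63.2% of all tested genes, and none reached the fold threshold. With the replicate block SMAD1 (adjusted p = 0.079) and SMAD3 (adjusted p = 0.1) did not pass, and under median-ratio scaling SMAD2 (adjusted p = 0.26) and SMAD3 (adjusted p = 0.388) did not. SMAD1 also did not pass without 37C B, C, D or E or 42C C, D or E (adjusted p = 0.0505 to 0.123). It passed without 37C A (0.0477) or 42C A (0.00745) and under median-ratio scaling (0.00166). SMAD3 did not pass without 37C A, B or C or 42C A or E (0.0678 to 0.0827) or with all 10 libraries (0.401). It passed without 37C D or E or 42C C or D (0.00594 to 0.0368). SMAD5 had the widest difference: 16.8, 18.3, 17.9, 20.5 and 22.5 TPM in 37C A to E, and 36.2, 38.8, 41 and 38.8 TPM in 42C A, C, D and E (0.98 ± 0.11, adjusted p = 5.46e-05). The groups were wide apart, with 42C B (19.6 TPM) inside the 37 °C range. SMAD1, which acts in the same BMP branch, went the other way, with 36.2, 36.6, 36.5, 50.4 and 40.5 TPM in 37C A to E and 38.2, 32.1, 27.4 and 25.3 TPM in 42C A, C, D and E (-0.38 ± 0.15, adjusted p = 0.0411).

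At 37 °C SMAD1 was the more abundant of this pair in all 5 libraries, with a SMAD5 to SMAD1 ratio of 0.406 to 0.555, whereas the ratio was 0.947 in 42C A and 1.21 to 1.53 in 42C C, D and E. Their sum moved little, from 53 to 70.9 TPM at 37 °C to 64.2 to 74.3 TPM at 42 °C. The ratio in 42C B was 0.897, also above the 37 °C range. These ratios and sums are descriptions without a test.

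In the TGF-beta and activin branch, SMAD2 had means of 31.8 and 45.2 TPM (0.49, adjusted p = 0.0048) and SMAD3 had 75.7 and 109 TPM (0.53, adjusted p = 0.0326). SMAD2 was higher in 4 of 4 pools and its groups did not overlap, whereas SMAD3 was higher in 3 of 4 pools, with 109 TPM in 37C D and 88.3 TPM in 42C D. SMAD4, the partner shared by both branches, averaged 48.3 ± 5.94 TPM in the 37 °C libraries and 84.1 ± 7.09 TPM in the 42 °C libraries (0.79 ± 0.11, adjusted p = 0.000163), and was higher in 4 of 4 pools with no overlap. The summed TPM of SMAD1 and SMAD5 was 0.495 to 0.597 times that of SMAD2 and SMAD3 at 37 °C and 0.385 to 0.513 times at 42 °C.

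**Figure D4:**
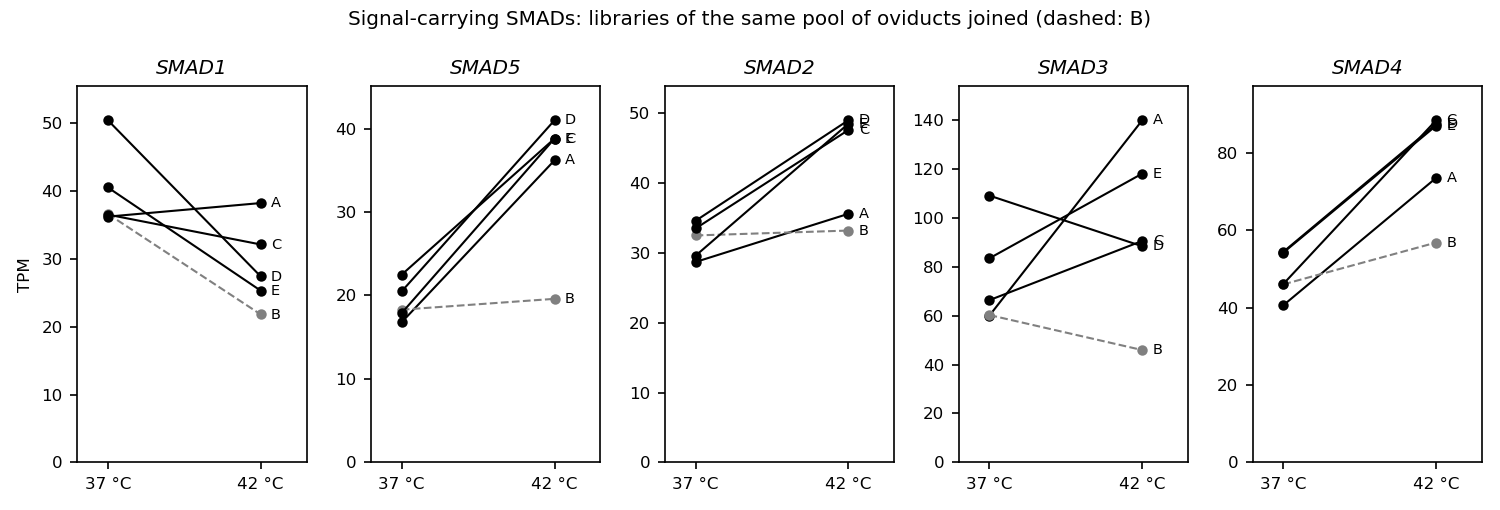
TPM of SMAD1 and SMAD5 (BMP branch), SMAD2 and SMAD3 (TGF-beta and activin branch) and the shared SMAD4 at both temperatures. Lines join the libraries made from the same pool of oviducts, and the dashed line is pool B, whose library at 42 °C was left out of the fit. All solid lines of SMAD5, SMAD2 and SMAD4 climb, 3 of 4 solid lines of SMAD1 go down, and those of SMAD3 cross.

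Of the 7 intracellular inhibitors, 3 rose (42.9%, against 15.8% of all tested genes). A further 3 were higher at adjusted p below 0.05 under the fold threshold (85.7% higher with both counted, against 45.1%). SKI and SKIL encode related corepressors that bind SMAD complexes on DNA. SKI had 27.1, 23.1, 23.4, 33 and 27 TPM in 37C A to E and 58.5, 102, 95.2 and 83.6 TPM in 42C A, C, D and E, with 87.4 TPM in 42C B. Its difference was 1.61 ± 0.17 (adjusted p = 3.41e-05), the widest of the 43 members on the TPM as deposited (under median-ratio scaling FST, at -1.37, was wider than SKI, at 1.27), and all 5 heat-stressed libraries were above all 37 °C libraries.

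SKIL had 2.8, 1.97, 5, 5.44 and 5.8 TPM in 37C A to E and 9.07, 13.9, 11.7 and 13.3 TPM in 42C A, C, D and E (10.3 TPM in 42C B). Its groups did not overlap, and the difference was 1.38 ± 0.26 (adjusted p = 0.000747). Set against SMAD4, which these corepressors bind, SKI was at 0.497 to 0.667 times its TPM at 37 °C and 0.796 to 1.15 times at 42 °C.

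SMURF2, a ubiquitin ligase that marks receptors and SMADs for breakdown, had 15.5, 14, 15.9, 21.5 and 19.4 TPM in 37C A to E and 35.9, 52.3, 65.9 and 56 TPM in 42C A, C, D and E, with 35.4 TPM in 42C B. The groups did not overlap, 42C B included, and the difference was 1.53 ± 0.18 (adjusted p = 5.78e-05). SMURF2 overlaps CEP95 in the bovine annotation, and without strand the reads of the 2 genes cannot be told apart. Its relative SMURF1 had 13.9 ± 2.58 and 26 ± 3.38 TPM (0.87 ± 0.15, adjusted p = 0.000445), and the ratio of SMURF2 to SMURF1 was 1.18 to 1.47 at 37 °C and 1.65 to 2.45 at 42 °C.

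The inhibitory SMAD7, which blocks type I receptors, had means of 2.02 and 4.44 TPM (0.84, adjusted p = 0.00623) and was higher in 4 of 4 pools, although 42C D (2.64 TPM) lay within the 37 °C range of 1.31 to 2.65 TPM. SMAD6, its counterpart in the BMP branch, had 16.4 and 20.7 TPM and did not pass the test (0.31, adjusted p = 0.197). TGIF1, a homeodomain corepressor, had 65.3 and 97.8 TPM (0.57, adjusted p = 0.00145, and 0.0784 under median-ratio scaling) with no overlap. TGFBR2, SMURF2 and SKI were the members called under all 20 alternative settings.

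Antagonists at the cell surface and outside the cell went in both directions. FST encodes follistatin, which binds activin and keeps it from its receptors. It had 20.1, 14.4, 18, 30 and 22.6 TPM in 37C A to E, 18 TPM in 42C A, 5.14 TPM in 42C C, 5.98 TPM in 42C D and 12.8 TPM in 42C E, with 7.41 TPM in 42C B. Library 42C A lay within the 37 °C range and the other heat-stressed libraries lay below it, and the difference was -1.06 ± 0.32 (adjusted p = 0.0139), lower in 4 of 4 pools. The call was lost for want of fold without 37C D (-0.92), 42C C (-0.81) or 42C D (-0.87), and without 42C A the difference was -1.35.

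FSTL3, a secreted relative of follistatin, had 41.4 ± 4.53 and 67.8 ± 19.7 TPM (0.67, adjusted p = 0.00437, and 0.0782 under median-ratio scaling), with no overlap. In 42C B it reached 539.7 TPM, against 37.1 to 96.4 TPM in the 9 others. Follistatin and its relative therefore differed in sign, FST with a log2 difference of -1.06 and FSTL3 with 0.67.

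BAMBI encodes a receptor-like protein without a kinase that takes the place of a type I receptor. It had 8.89, 8.49, 10.9, 9.52 and 9.54 TPM in 37C A to E, 7.42 TPM in 42C A, 40.6 TPM in 42C C, 45.4 TPM in 42C D and 15.7 TPM in 42C E, with 49.7 TPM in 42C B. Library 42C A was below all 37 °C libraries and the other 4 were above them. The difference was 1.13 ± 0.42 (adjusted p = 0.0331), in 3 of 4 pools. It was called in 10 of 20 alternative settings: it passed without 42C A (1.61), and it failed on the adjusted p without 37C A (0.0588), 37C B (0.0607), 37C D (0.0554), 37C E (0.0532), 42C C (0.107) or 42C D (0.11), where the log2 differences were 0.79 to 1.13. PMEPA1, a membrane protein that holds SMAD2 and SMAD3 away from receptors, had 16.1 and 26.8 TPM (0.72, adjusted p = 0.0258, and 0.102 with the replicate block) and was higher in 3 of 4 pools, with 8.31 TPM in 42C B. PMEPA1 did not pass the test under median-ratio scaling (0.176) or quantile normalization (0.205) or with all 10 libraries (0.351). Nor did it pass without 37C A or B or 42C A, C or E (0.0589 to 0.0634). It passed without 37C C, D or E or 42C D (0.0095 to 0.0411).

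Of the target genes, 1 of 5 rose (20%, against 15.8% of all tested genes). The ID genes encode partners of basic helix-loop-helix factors that keep those from binding DNA, and BMP signals are known to induce them. ID2 had 40.2, 34.7, 56.1, 27.1 and 44.5 TPM in 37C A to E, 47.9 TPM in 42C A, 111 TPM in 42C C, 112 TPM in 42C D and 82.2 TPM in 42C E, with 361 TPM in 42C B. Library 42C A lay within the 37 °C range and the others were above it, and the difference was 1.07 ± 0.26 (adjusted p = 0.00388), higher in 4 of 4 pools. Without 37C D (0.94), 42C C (0.93) or 42C D (0.93) it missed the fold threshold, and without 42C A the difference was 1.33.

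ID4 had means of 17.5 and 34.1 TPM (0.85, adjusted p = 0.0281), with 14.9 TPM in 42C A and from 34.2 to 47.4 TPM in the other 3, against 11.4 to 22.1 TPM at 37 °C. It passed the rule without 42C A, with a difference of 1.19 (adjusted p = 0.00038). ID4 did not pass the test without 37C A (adjusted p = 0.0549) or 37C D (0.065). Nor did it pass without 42C C (adjusted p = 0.0795), 42C D (0.0926) or 42C E (0.0647). The test also failed under median-ratio scaling (0.52, adjusted p = 0.158) and quantile normalization (0.51, adjusted p = 0.188). Without 37C B (adjusted p = 0.0277), 37C C (0.0485) or 37C E (0.0283) ID4 passed it. ID1 (33.3 ± 18 and 30.8 ± 13.6 TPM, adjusted p = 0.948) and ID3 (32.8 ± 16.9 and 43 ± 10.1 TPM, adjusted p = 0.19) did not pass the test, and ID1 ran from 8.83 TPM in 37C D to 52.6 TPM in 37C C within a single temperature. TGFBI, a matrix protein named for its induction by TGF-beta, had 4.89 and 4.94 TPM (adjusted p = 0.921).

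In 42C B all 4 ID genes were above all 9 other libraries: the sum of ID1 to ID4 was 846 TPM there, against 64.6 to 172 TPM at 37 °C and 141 to 250.5 TPM in 42C A, C, D and E. With BAMBI and FSTL3 these were the 6 members higher in 42C B than in all others (14%, against 7.99% of all tested genes). In the other direction, 13 members were lower (30.2%, against 44.9% of all tested genes). The members together held 1023 to 1323 TPM at 37 °C, 1472 to 1653 TPM in 42C A, C, D and E and 2088 TPM in 42C B.

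**Figure D5:**
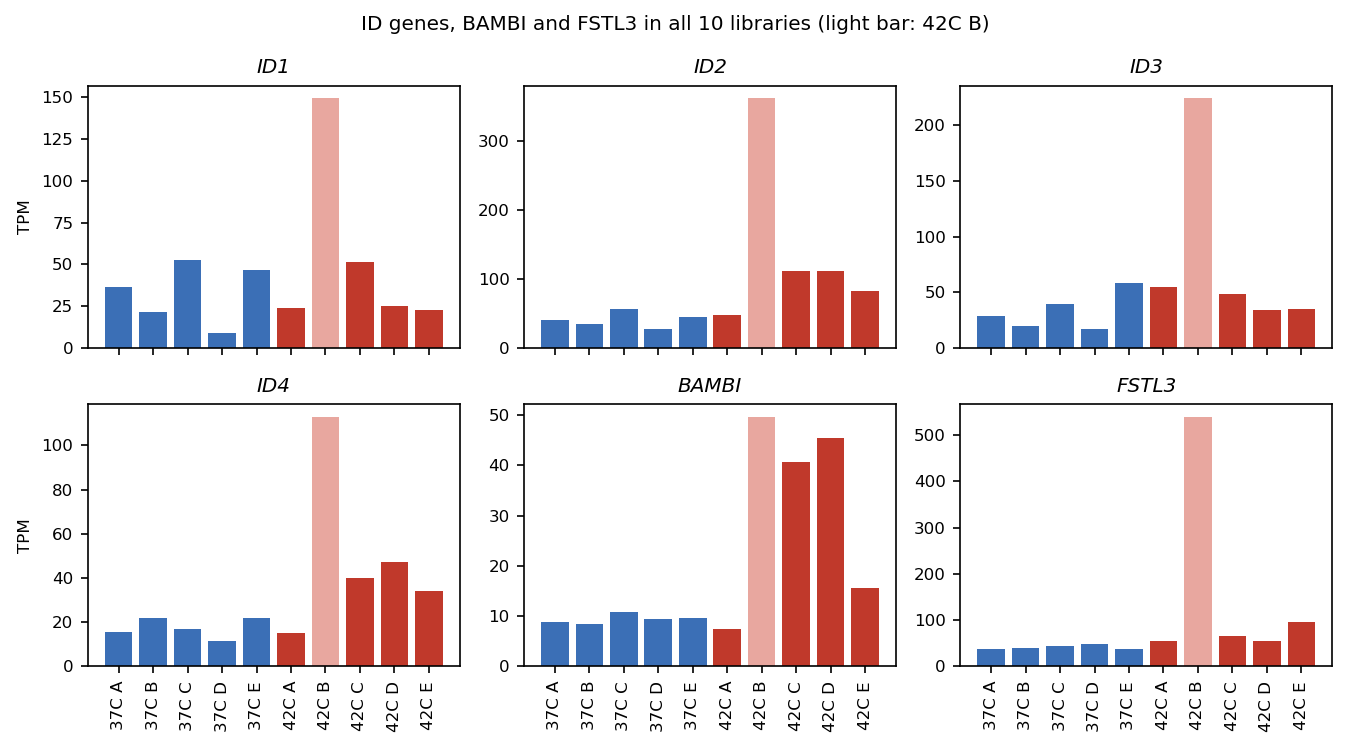
TPM of ID1 to ID4, BAMBI and FSTL3 in all 10 libraries (blue, 37 °C; red, 42 °C; light red, 42C B, left out of the fit). In all 6 panels 42C B is the highest bar, from 49.7 TPM for BAMBI to 539.7 TPM for FSTL3, and in the panels of ID4 and BAMBI 42C A is no higher than the 37 °C libraries 37C A, B and C.

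Other genes of the pathway were taken from a list of 65 further ligands, receptors, storage proteins, ligases and cofactors, of which 62 were in the table and 40 were tested. Of the 40, 13 rose and 2 fell (37.5% called, against 22.9% of all tested genes), and their median difference was 0.56. Under median-ratio scaling 6 rose and 2 fell, with a median of 0.23, where 19.4% of all tested genes were called. The widest was that of GDF11, a ligand that acts through ACVR2 receptors, with 3.33 to 6.26 TPM at 37 °C and 16.9 to 38.3 TPM at 42 °C (log2 difference 2.36, adjusted p = 3.90e-05). ITGB8, an integrin subunit that frees latent TGF-beta, rose by 1.66 on the log2 scale (15 and 48.4 TPM), and LRRC32, which tethers latent TGF-beta at the cell surface, fell by 1.54 (9.77 and 3.07 TPM, with 8.8 TPM in 42C A). The kinase HIPK2 (1.50), the ubiquitin ligase XIAP (1.47), the SMAD anchor ZFYVE9 (1.41), the receptor-associated TGFBRAP1 (1.36) and the deubiquitinase USP9X (1.31) rose with groups that did not overlap.

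Genes outside the members that TGF-beta is known to induce went in both directions. Of 16 tested, 4 rose (25%, against 15.8% of all tested genes). They included the matrix protein THBS1, an activator of latent TGF-beta (60.6 and 293 TPM, 2.29). They also included the cell cycle inhibitor CDKN1A (106 and 329 TPM, 1.56) and the matricellular CCN2 (132 and 404 TPM, 1.51). Another 3 fell (18.8%, against 7.14% of all tested genes). They included the intermediate filament gene VIM (261 and 62.9 TPM, -2.61) and the gelatinase MMP2 (10.1 and 3.65 TPM, -1.54). The smooth muscle actin ACTA2 was also among them (5.38 and 1.55 TPM, -1.31). VIM is also on the fibroblast marker list and ACTA2 on that of smooth muscle. Library 42C A stood apart from 42C C, D and E for VIM (167 TPM, against 14.7 to 45.5 TPM), MMP2 (9.5 TPM, against 1.02 to 2.38 TPM) and CCN2 (112 TPM, against 347 to 731 TPM). Of 9 further genes known to respond to BMP, 4 were tested and 0 were called by limma (22.9% of all tested genes were). HEY1 and HES1 (2 of the 4) had an unadjusted p below 0.05 in that test. HEY1, a Notch and BMP target, was higher under the fold threshold (0.415 and 1.64 TPM, 0.89, adjusted p = 0.00182).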

How the data were processed

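Organoid mRNA libraries were prepared with the NEBNext Ultra kit and sequenced by a service provider. Per the study's methods, reads were trimmed on quality and mapped per library to ARS-UCD1.2 in CLC Genomics Workbench, and bcl2fastq, Bowtie2 2.2.2 and DESeq2 are listed in the processing notes of the submitters. The sources used here do not give the annotation release or the strand setting. The deposited values are TPM per gene and library, rescaled by the authors to 1000000 in each column, so read depth is unknown.

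The members and all gene lists were chosen with earlier results of these data known. Members were matched by symbol, and 43 of 43 were found among RefSeq symbols (ARS-UCD2.0). Groups came from the sample titles. TPM values were analysed as log2(TPM + 1) with limma 3.58.1 (R 4.3.3; linear model for temperature, empirical Bayes with trend) on 9 libraries without 42C B. The test covered the 12149 genes with at least 1 TPM in no fewer than 4 of the 9 libraries, with Benjamini-Hochberg adjustment over all of them. A call needed an adjusted p under 0.05 together with a log2 difference of at least 1. A fold on this scale understates the change of low genes. The script was tested on simulated data.

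Per-library values are given for called members, means or ranges for the others, at most the 8 widest called genes of the wider pathway, and called response genes, 1 of which is not reported here. Alternatives were other pseudocounts (0.1 and 5), filters, scalings, all 10 libraries, array weights, no trend, no fold threshold, a replicate block and each library left out. Libraries of one letter came from the same oviducts, so the letters pair them: deviations from the group means of same-letter libraries correlated at 0.131 (A), 0.240 (B), 0.375 (C), 0.278 (D) and 0.221 (E) over 12267 genes.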

Additional observations from a re-analysis of the deposited data

Results flagged for a closer look

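Dixon's test was applied to each member within each temperature, and 8 of 86 groups held a library beyond the 95% limit, where chance gives about 1 in 20. The groups share the same 9 libraries, so their flags are not independent, and the count was not tested against that rate. At 37 °C, INHBA (6.32 TPM, against 1.53 to 2.38 TPM in the others) and LTBP1 (16.8 TPM, against 7.25 to 8.88 TPM) stood high in 37C D. At 42 °C, ACVR1B (13.4 TPM, against 16.4 to 17 TPM), SMAD2 (35.6 TPM, against 47.6 to 49 TPM) and SMAD4 (73.5 TPM, against 87 to 88.4 TPM) stood low in 42C A. TGFBR1 (25.2 TPM, against 29.4 to 30.3 TPM) and SMAD7 (2.64 TPM, against 4.91 to 5.27 TPM) stood low in 42C D, and ID1 stood high in 42C C (51.2 TPM, against 22.8 to 25.1 TPM).

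In 42C B, which was left out of the main fit, 5 members were at least 2-fold above all 9 other libraries, the 37 °C controls included. Of all tested genes, 7.99% were higher in 42C B than in all 9 others without regard to fold. FSTL3 was at 539.7 TPM (37.1 to 96.4 TPM in the others), ID1 at 149 TPM (8.83 to 52.6 TPM), ID2 at 361 TPM (27.1 to 112 TPM), ID3 at 224 TPM (17.3 to 58.8 TPM) and ID4 at 113 TPM (11.4 to 47.4 TPM).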

How the results depend on the processing

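The counts of members called were 9 higher and 1 lower, with 2782 of all tested genes called. They were 3, 0 and 1371 with a pseudocount of 5, and 25, 2 and 7679 with no fold threshold. They were 5, 2 and 2357 under median-ratio scaling, 4, 2 and 2234 under quantile normalization, and 12, 2 and 3489 with all 10 libraries and array weights. With the replicate block, 9 members were higher and 1 was lower, the same genes, and 2717 of all tested genes were called. At adjusted p below 0.05 without regard to fold, the paired fit lost INHBA (0.0821), SMAD1 (0.079), SMAD3 (0.1) and PMEPA1 (0.102), median-ratio scaling lost 12 members and gained 6, and quantile normalization lost 9 and gained 5. Leaving out each library in turn gave 7 to 11 members higher and 0 to 2 lower. TGFBR2, SMURF2 and SKI were called in all 20 alternatives, SKIL in 19, BMP2 in 18, TGFBR1, ACVR1B and FST in 16, ID2 in 14 and BAMBI in 10. Differences that changed sign all belonged to members not called. Under median-ratio scaling and quantile normalization they were TGFB1 (-0.28 and -0.24), TGFB3 (-0.14 and -0.13), BMP1 (-0.21 and -0.05), SMAD6 (-0.02 and -0.06) and ID1 (-0.30 and -0.26). With all 10 libraries they were TGFB1 (-0.14) and BMP1 (-0.37), with array weights TGFB1 (-0.18) and BMP7 (0.05), and with the replicate block ID1 (-0.06) and TGFBI (0.01). With a library left out, TGFB1 ran from -0.15 to 0.23, TGFB3 from -0.05 to 0.31, BMP7 from -0.17 to 0.06, BMP1 from -0.02 to 0.27, ID1 from -0.36 to 0.26 and TGFBI from -0.19 to 0.14. The cause was not tested. Depth is unknown, and with 4 or 5 libraries a group the precision is that of the spread between them.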
